A study of Mus musculus with 6 samples.

Results

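The genes described here encode ligands and receptors through which myeloid cells restrain or costimulate T cells, measured in 6 RNA-seq libraries of CD11b+ Gr-1+ cells sorted from mouse tumours. They were the 9 named genes Cd274, Pdcd1lg2, Cd80, Cd86, Icosl, Cd276, Cd40, Lgals9 and Havcr2, taken by gene symbol, and all 9 were found among the 23107 genes of the deposited table. The mice were C57BL/6, and 3 libraries came from tumours labelled as wild type for IDH1 (wtIDH1) and 3 from tumours labelled as mutant for IDH1 (mIDH1). The enzyme IDH1 oxidises isocitrate in the cytosol, mutant IDH1 of gliomas produces 2-hydroxyglutarate instead, and the series title places the tumours among gliomas. The other alleles of the tumours, the mutation itself, the time of harvest and the age of the mice were not in the labels. Nor do the labels tie each replicate to a mouse of its own, so p-values measure only how these libraries vary, and that variation may be technical. Gr-1 antibodies bind Ly6G and Ly6C, so the gate can hold neutrophils and monocytes together.

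A T cell that meets antigen needs a second signal, which comes mainly from B7 proteins on the presenting cell. CD80 and CD86 bind CD28, which stimulates, and CTLA-4, which restrains, whereas PD-L1 (Cd274) and PD-L2 (Pdcd1lg2) bind the inhibitory receptor PD-1. ICOS ligand (Icosl) binds ICOS, B7-H3 (Cd276) has been given both roles, CD40 is the receptor by which helper T cells license myeloid cells, and galectin-9 (Lgals9) binds TIM-3 (Havcr2). In tumours, PD-L1 on myeloid cells is known as a brake on T cells and is induced by interferon.

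Cd276 was the 1 gene of the 9 that rose in cells from mIDH1 tumours, and none fell. DESeq2 gave the same counts, 1 higher and none lower. The other 8 did not pass edgeR's test, although 7 of the 9 genes had a lower mean in mIDH1 (46.6% of all tested genes had a negative log2 fold change). Levels are counts-per-million scaled by the trimmed mean of M-values method (CPM), fold changes are mIDH1 over wtIDH1, and a gene passed when its edgeR quasi-likelihood p-value, adjusted by the Benjamini-Hochberg method over 12950 tested genes, was under 0.05. Of all tested genes, 8.17% passed, 2.78% as higher and 5.39% as lower in mIDH1, which is 360 and 698 genes (486 and 593 under scaling by library totals). An unadjusted p under 0.05 was seen for 3 of the 9 genes, Cd276, Lgals9 and Cd274, and for 22.2% of all tested genes. With any 1 of the wtIDH1 libraries or mIDH1 replicate 1 left out, the count of genes that rose was 0, and in the last case Cd274 and Cd40 were called lower. All 9 genes were above the filter on low counts in every library by a wide margin, and their lowest count was 202, for Pdcd1lg2 in mIDH1 replicate 3. Since the libraries are bulk samples, fewer cells of a type and less RNA per cell cannot be told apart in any of these values.

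Library totals ranged from 19728205 to 35093265 counts. Itgam, the gene of the sorted antigen CD11b, was between 1780 and 2058 CPM in wtIDH1 and between 1832 and 2224 CPM in mIDH1 libraries. The gene of Ly6G was not in the marker lists, so its level is not given here. Ly6c2, which encodes a Ly6C antigen, fell, from 152 ± 54.1 to 45.0 ± 10.4 CPM (SD, n = 3 each; log2 fold change -1.76 ± 0.26 SE, edgeR adjusted p = 0.0018). Of 8 monocyte markers, 2 fell, Ly6c2 and Plac8 (-1.94 on the log2 scale), and 1 rose, F13a1 (1.78), with a median log2 fold change of -0.57 (1 fell without wtIDH1 replicate 2 or 3, and 3 rose without mIDH1 replicate 3). Of 10 neutrophil markers, 9 were tested, 2 rose, the chemokine receptor gene Cxcr2 (1.15) and the collagenase gene Mmp8 (1.85), and 1 fell, Csf3r (-0.82), with a median of 1.40. Without wtIDH1 replicate 2, 1 of the neutrophil markers rose, and none fell without any 1 of the wtIDH1 libraries or with the replicate number as a block. The 10 neutrophil markers summed to 334, 373 and 410 CPM in wtIDH1 and 472, 453 and 401 CPM in mIDH1 libraries. Of that sum, Csf3r made 248 to 273 CPM in wtIDH1 and 110 to 176 CPM in mIDH1. The calcium-binding protein gene S100a8 was at 2.54 to 7.21 CPM in wtIDH1 and 9.37 to 11.3 CPM in mIDH1. Transcripts of cells outside the gate were measurable too: the summed level of 8 T and NK cell markers was 362, 213 and 169 CPM in wtIDH1 and 440, 534 and 251 CPM in mIDH1 libraries. None of the 8 markers was at 0 in any library, and none passed by edgeR or DESeq2, while 4 had an unadjusted p under 0.05. By edgeR, 1 was called higher without wtIDH1 replicate 1, 2 were called higher without mIDH1 replicate 3, and 1 was called lower without mIDH1 replicate 1. The 5 microglia markers summed to 259, 227 and 167 CPM in wtIDH1 and 162, 237 and 360 CPM in mIDH1 libraries. None of these 5 passed by edgeR, and 1 had an unadjusted p under 0.05.

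**Figure D1:**
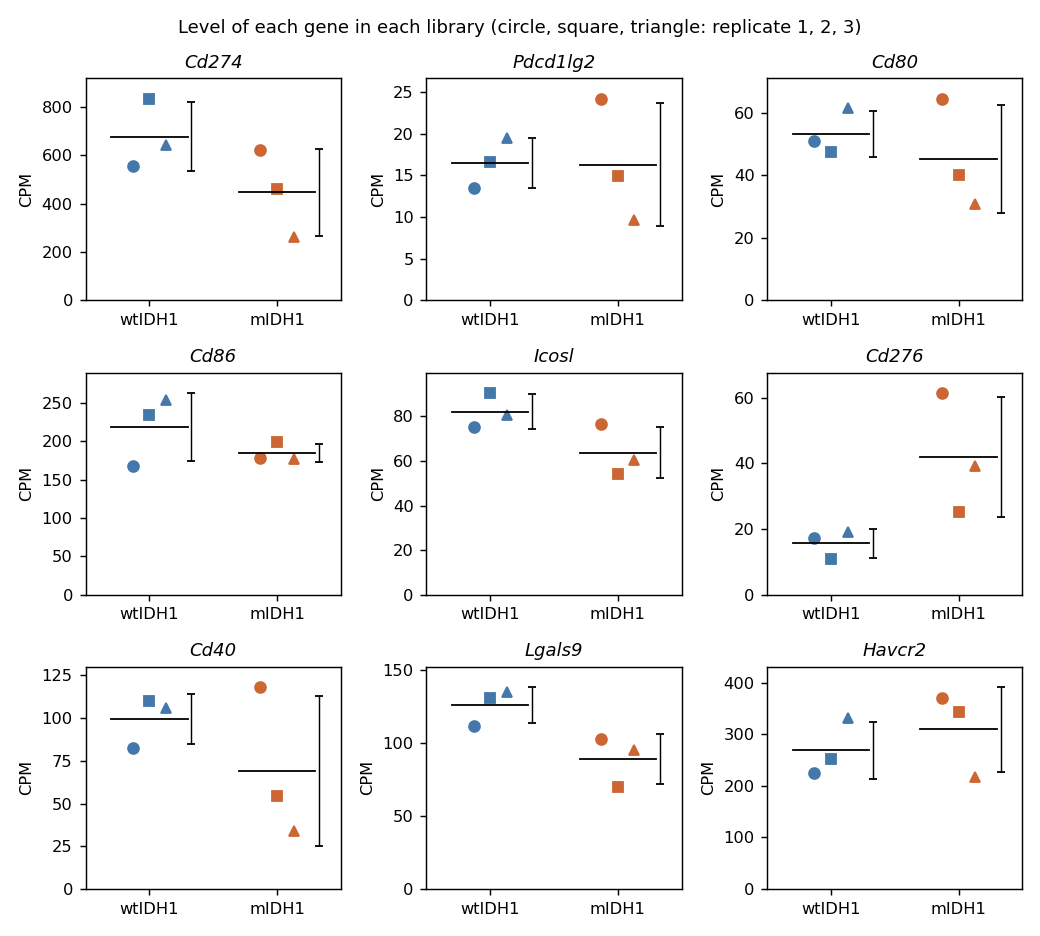
Level in CPM (y axis, starting at 0) of each of the 9 genes in wtIDH1 (blue) and mIDH1 (orange) libraries, with the marker shape giving the replicate, a line at the group mean and a bar of 1 SD on either side. The groups do not overlap for Cd276, at 10.7 to 19.1 CPM against 25.1 to 61.5 CPM, or for Lgals9, at 112 to 135 CPM against 70.0 to 103 CPM. Groups without overlap, in either direction, were seen for 28.9% of all tested genes.

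Per kilobase of exon, Cd274 had the highest level of the 9 genes and Cd276 the lowest in wtIDH1 libraries. Cd274 stood at 187 ± 39.5 CPM per kilobase (SD, n = 3) in wtIDH1 and 124 ± 49.7 in mIDH1. Havcr2 (98.6 ± 20.4 CPM per kilobase), Cd86 (86.1 ± 17.6) and Lgals9 (78.2 ± 7.69) followed in wtIDH1, and these 3 had overlapping ranges. Cd40 (33.3 ± 4.95 CPM per kilobase) and Icosl (29.1 ± 2.80) overlapped as well, and below them Cd80 (14.4 ± 1.99), Pdcd1lg2 (8.41 ± 1.52) and Cd276 (4.35 ± 1.22) did not overlap with their neighbours. In mIDH1 libraries Cd276, at 11.6 ± 5.08 CPM per kilobase, lay above Pdcd1lg2, at 8.28 ± 3.76, with overlapping ranges. Exon lengths are those of the GENCODE basic set, and which transcripts these cells use was not measured.

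The B7 genes that bind PD-1 lie side by side on chromosome 19 and were at very different levels. Cd274 (chromosome 19, 29367455 to 29388095, plus strand, 7 exons in its longest transcript) was at 555, 835 and 643 CPM in the wtIDH1 libraries and at 622, 461 and 263 CPM in the mIDH1 libraries. Replicate 3 of mIDH1 was the lowest of the 6 libraries and the groups overlapped. Its log2 fold change was -0.60 ± 0.27 SE (95% interval -1.18 to -0.02, not adjusted for the number of genes as no interval here is; edgeR adjusted p = 0.209). Without mIDH1 replicate 1 it passed as lower (log2 fold change -0.91, adjusted p = 0.047), and without mIDH1 replicate 3 the log2 fold change was -0.32 (adjusted p = 0.389). Over 13 alternatives its adjusted p ranged from 0.047 to 0.518. An antisense gene model on the other strand shares 10.9% of the exon bases of Cd274, and reads of the 2 cannot be told apart in a library kit that does not mark strand.

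Pdcd1lg2 (chromosome 19, 29410919 to 29471161, plus strand, 5 exons) was at 13.5, 16.5 and 19.5 CPM in wtIDH1 and at 24.2, 14.9 and 9.61 CPM in mIDH1 libraries. The mIDH1 libraries therefore held both the highest and the lowest of the 6 values. The log2 fold change was -0.02 ± 0.38 SE with a 95% interval from -0.85 to 0.80 (edgeR adjusted p = 0.982), and its sign changed under scaling by library totals (0.043). A change of up to 0.80 in size in either direction is inside that interval. Counts of Cd274 were 41.1, 50.5 and 33.1 times those of Pdcd1lg2 in the wtIDH1 libraries and 25.7, 30.9 and 27.3 times in the mIDH1 libraries. This within-library ratio does not depend on library scaling, and its groups did not overlap. The difference of the mean log2 ratios, mIDH1 minus wtIDH1, was -0.55 (two-sided exact permutation p = 0.1, the smallest that 3 against 3 libraries allow, and 0.3 adjusted over the 3 ratios tested).

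The CD28 and CTLA-4 ligands Cd80 and Cd86 (both on chromosome 16) did not pass. Cd80 (38455561 to 38496335, plus strand) was at 50.8, 47.5 and 61.6 CPM in wtIDH1 and at 64.5, 40.2 and 30.9 CPM in mIDH1 libraries, so that mIDH1 held the highest and the lowest value (log2 fold change -0.24 ± 0.27 SE, 95% interval -0.82 to 0.35, edgeR adjusted p = 0.674). Cd86 (36603869 to 36666081, minus strand) was at 168, 234 and 254 CPM in wtIDH1 and at 179, 199 and 177 CPM in mIDH1 libraries. The mIDH1 values lay inside the range of the wtIDH1 values (log2 fold change -0.24 ± 0.18 SE, 95% interval -0.64 to 0.16, edgeR adjusted p = 0.497). Cd86 was the 1 gene of the 9 that varied less among mIDH1 than among wtIDH1 libraries. The count ratio of Cd86 to Cd80 was 3.31, 4.93 and 4.12 in wtIDH1 and 2.77, 4.96 and 5.75 in mIDH1 libraries, with overlapping groups (log2 difference 0.08, exact permutation p = 0.8, and 0.8 adjusted over the 3 ratios).

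Icosl, the ligand of ICOS (chromosome 10, 78069302 to 78083913, plus strand), was at 75.0, 90.6 and 80.5 CPM in wtIDH1 and at 76.5, 54.4 and 60.5 CPM in mIDH1 libraries. Only mIDH1 replicate 1 reached into the wtIDH1 range, and the log2 fold change of -0.36 ± 0.20 SE did not pass (95% interval -0.79 to 0.06, edgeR adjusted p = 0.305).

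Cd276, the gene of B7-H3 (chromosome 9, 58524298 to 58555437, minus strand, 8 exons), was at 17.2, 10.7 and 19.1 CPM in wtIDH1 and at 61.5, 25.1 and 39.3 CPM in mIDH1 libraries. Every mIDH1 library was above every wtIDH1 library, and groups without overlap, in either direction, were seen for 28.9% of all tested genes. It rose from 15.7 ± 4.39 to 42.0 ± 18.3 CPM (SD, n = 3 each; log2 fold change 1.42 ± 0.35 SE, 95% interval 0.66 to 2.18, edgeR adjusted p = 0.027). The gene passed in 9 of 13 alternatives, with a positive log2 fold change in all 13. It did not pass without wtIDH1 replicate 1 (1.49, adjusted p = 0.065), wtIDH1 replicate 2 (1.20, adjusted p = 0.138), wtIDH1 replicate 3 (1.59, adjusted p = 0.066) or mIDH1 replicate 1 (1.04, adjusted p = 0.106). A gene model on the other strand shares 11.5% of its exon bases, and its reads cannot be told apart from those of Cd276.

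Marker lists of other cells were set beside Cd276, because the protein is also known from tumour and stromal cells. The summed level of 5 glioma and neural markers was 5.14 to 9.43 CPM in wtIDH1 and 11.1 to 20.2 CPM in mIDH1 libraries, without overlap. Of these 5 genes, 4 were tested and 1 rose, the stem cell factor gene Sox2, from 0, 0.0759 and 0.151 CPM, around the level of 3 counts, to 0.546, 7.30 and 4.18 CPM (edgeR adjusted p = 0.037, 0.0185 to 0.182 with a library left out and 0.238 by limma voom, and passed in 5 of 12 alternatives). DESeq2 called 2 higher, Sox2 and the intermediate filament gene Nes, which was at 2.42 to 3.72 CPM in wtIDH1 and 8.28 to 9.35 CPM in mIDH1 (edgeR adjusted p = 0.092). The astrocyte filament gene Gfap had a log2 fold change of the other sign (-2.09, edgeR adjusted p = 0.317), and Olig2 was at 0 in 3 libraries. Within the mIDH1 group, replicate 1 had the highest Cd276 level and the lowest glioma marker sum of its group. The sum of the macrophage markers given below was lowest in that library too. The neutrophil marker sum and the endothelial and pericyte marker sum were highest in it. The 5 endothelial and pericyte markers summed to 24.5 to 37.6 CPM in wtIDH1 and 5.90 to 21.7 CPM in mIDH1, and none of the 2 tested passed by edgeR (1 at an unadjusted p under 0.05) or DESeq2. Most of that sum was the endothelial receptor gene Kdr, at 24.4 to 30.8 and 4.23 to 17.5 CPM, while the pericyte gene Pdgfrb, too low to be tested, was at 0 to 0.370 CPM in wtIDH1 and 0.381 to 1.49 CPM in mIDH1. Of 10 macrophage markers, 6 rose, as did 2.78% of all tested genes, and none fell (3, 1 and 2 rose without wtIDH1 replicate 1, 2 or 3, and 3 with the replicate number as a block), and their sum was 4648 to 5876 CPM in wtIDH1 and 7797 to 15060 CPM in mIDH1. Among them the mannose receptor gene Mrc1 had a log2 fold change of 2.53 and the phagocytic receptor gene Mertk one of 0.90. Of the 9 tested neutrophil markers given above, 8 had a positive log2 fold change, as Cd276 did. The part of any of these cells in the Cd276 result was not tested.

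Cd40 (chromosome 2, 165055627 to 165072948, plus strand) had the widest spread of the 9 genes within mIDH1. It was at 82.6, 110 and 106 CPM in wtIDH1 and at 118, 54.4 and 34.0 CPM in mIDH1 libraries. Replicate 1 of mIDH1 was the highest of all 6 libraries, and the other mIDH1 libraries were the lowest. The log2 fold change was -0.53 ± 0.35 SE (95% interval -1.28 to 0.22, edgeR adjusted p = 0.414). Without mIDH1 replicate 1 it was -1.17 and passed (adjusted p = 0.015), and without mIDH1 replicate 3 it was -0.20 (adjusted p = 0.735). The range over the mIDH1 libraries was 1.79 on the log2 scale, wider than that of 80.0% of tested genes, against 0.41 over the wtIDH1 libraries.

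**Figure D2:**
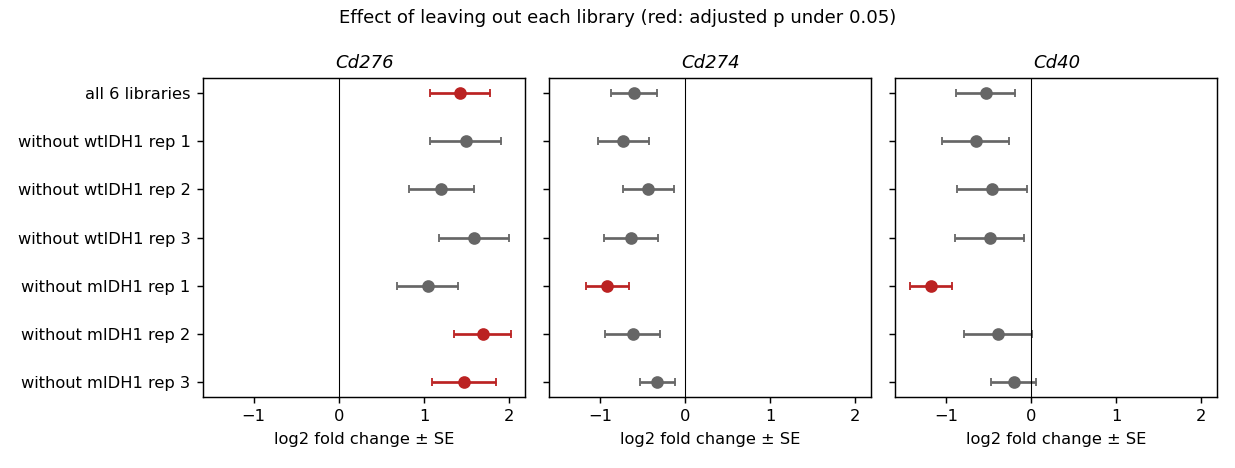
Log2 fold change of mIDH1 over wtIDH1 with its standard error (x axis, shared scale) for Cd276, Cd274 and Cd40 with all 6 libraries and with each library left out in turn (y axis), in red where the edgeR adjusted p was under 0.05. Cd276 stays between 1.04 and 1.69 but passes in 2 of the 6 reduced sets, whereas Cd274 and Cd40 pass only without mIDH1 replicate 1.

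Galectin-9 and its receptor TIM-3 did not pass either. Lgals9 (chromosome 11, 78962974 to 78984946, minus strand) was at 112, 131 and 135 CPM in wtIDH1 and at 103, 70.0 and 95.2 CPM in mIDH1 libraries. Each mIDH1 library was below each wtIDH1 library, but the closest values were 103 and 112 CPM. Groups without overlap, in either direction, were seen for 28.9% of all tested genes. The log2 fold change of Lgals9, -0.50 ± 0.19 SE, had an adjusted p of 0.136 by edgeR (95% interval -0.91 to -0.09). Over 13 alternatives it lay between -0.61 and -0.35, and its adjusted p between 0.100 and 0.361. Havcr2 (chromosome 11, 46454935 to 46481255, plus strand), which myeloid cells and exhausted T cells both express, was at 224, 251 and 330 CPM in wtIDH1 and at 370, 342 and 216 CPM in mIDH1 libraries. Its highest and lowest values were both in mIDH1 (log2 fold change 0.21 ± 0.22 SE, 95% interval -0.27 to 0.68, edgeR adjusted p = 0.652). The T and NK cell marker sum given above was likewise lowest in replicate 3 among the mIDH1 libraries but highest in replicate 1 among the wtIDH1 libraries, where Havcr2 was lowest, and the part of T cells in the Havcr2 level was not tested. Counts of Lgals9 over those of Havcr2 were 0.501, 0.522 and 0.410 in wtIDH1 and 0.279, 0.205 and 0.441 in mIDH1 libraries, and the groups overlapped through mIDH1 replicate 3 (log2 difference -0.70, exact permutation p = 0.2, and 0.3 adjusted over the 3 ratios).

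Most of the 9 genes had their highest mIDH1 value in the same library. Replicate 1 held the highest mIDH1 value for 8 of the 9 genes, Cd86 being the exception, and 33.6% of all tested genes were highest there. Replicate 3 held the lowest value for 6 of them, against 35.4% of tested genes. The range within mIDH1 was wider than within wtIDH1 for 8 of the 9 genes and for 56.8% of tested genes. These shares describe the libraries, and no test was made of them because the genes were chosen with results of these data known.

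The promoters of Cd274, the most abundant of the 9 per kilobase, and of Cd276 and Lgals9 are shown for comparison. Cd276 and Lgals9 are the 2 of the 9 genes whose groups did not overlap, as was so for 28.9% of all tested genes. The promoters run from 250 bases before to 50 bases after the RefSeq start (GRCm38.p6, 5′ to 3′ on the strand of the gene). They lie at chr19:29367188-29367487 on the plus strand, chr9:58554984-58555283 on the minus strand and chr11:78984875-78985174 on the minus strand, and capitals mark matches to the interferon-stimulated response element core on either strand.
Cd274: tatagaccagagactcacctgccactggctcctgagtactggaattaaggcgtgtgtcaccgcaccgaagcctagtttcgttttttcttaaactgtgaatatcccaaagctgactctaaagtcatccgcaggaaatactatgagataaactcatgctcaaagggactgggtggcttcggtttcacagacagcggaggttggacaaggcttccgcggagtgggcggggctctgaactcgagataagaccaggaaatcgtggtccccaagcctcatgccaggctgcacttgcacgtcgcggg
Cd276: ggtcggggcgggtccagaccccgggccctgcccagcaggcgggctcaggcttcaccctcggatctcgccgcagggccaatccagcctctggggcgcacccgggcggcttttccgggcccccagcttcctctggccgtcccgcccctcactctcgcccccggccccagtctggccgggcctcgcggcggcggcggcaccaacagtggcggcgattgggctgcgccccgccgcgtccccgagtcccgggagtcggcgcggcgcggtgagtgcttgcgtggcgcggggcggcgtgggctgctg
Lgals9: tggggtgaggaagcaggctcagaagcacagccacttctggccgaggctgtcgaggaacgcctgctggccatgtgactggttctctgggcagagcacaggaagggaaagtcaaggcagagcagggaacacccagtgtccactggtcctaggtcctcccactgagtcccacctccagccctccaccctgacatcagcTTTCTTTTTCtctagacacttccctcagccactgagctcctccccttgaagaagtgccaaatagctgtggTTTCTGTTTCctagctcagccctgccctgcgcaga
RefSeq promoters were matched for 7 of the 9 genes, all but Cd86 and Cd40. The response element core was found in 1 of the 7, Lgals9, with matches that begin 55 bases before and 16 bases after the start, and 3.44% of 32851 promoters of the same length held at least 1. The gamma-interferon activated site, searched as TTCNNNGAA, was in none of the 7 and in 8.30% of all promoters. The NF-kB consensus was in 2 of the 7, Icosl and Pdcd1lg2, and in 8.46% of all promoters. The windows of Cd276 and Cd80 lie wholly inside the GENCODE spans given above, so the annotations place the start of these genes differently. Which start these cells use was not measured. A match of letters is a description of the window and not a measured binding site.

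Genes with a pattern over the 6 libraries like that of a member were looked for among 11757 other named genes. Likeness was the root mean square difference of log2 CPM after centring each gene on its mean. For Cd40 the nearest genes were Batf2 (0.145), a basic leucine zipper factor gene, and Nlrc4 (0.155), an inflammasome gene. The genes nearest to Cd276 were Snora23 (0.157), a low gene at 0.493 to 3.93 CPM, and Zfp87 (0.186), and neither passed the test. The median difference over all genes compared was 0.948 for Cd276 and 0.804 for Cd40. For Lgals9 the nearest gene was Arf4 (0.033), for Icosl Rnf34 (0.071), for Cd86 Tbc1d17 (0.059), for Cd80 Atxn7l1 (0.074), for Pdcd1lg2 Mthfd2 (0.101) and for Havcr2 Vezf1 (0.078). Between members, Icosl and Lgals9 were most alike (0.13), followed by Pdcd1lg2 and Cd80 (0.172) and by Cd274 and Cd40 (0.230).

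**Figure D3:**
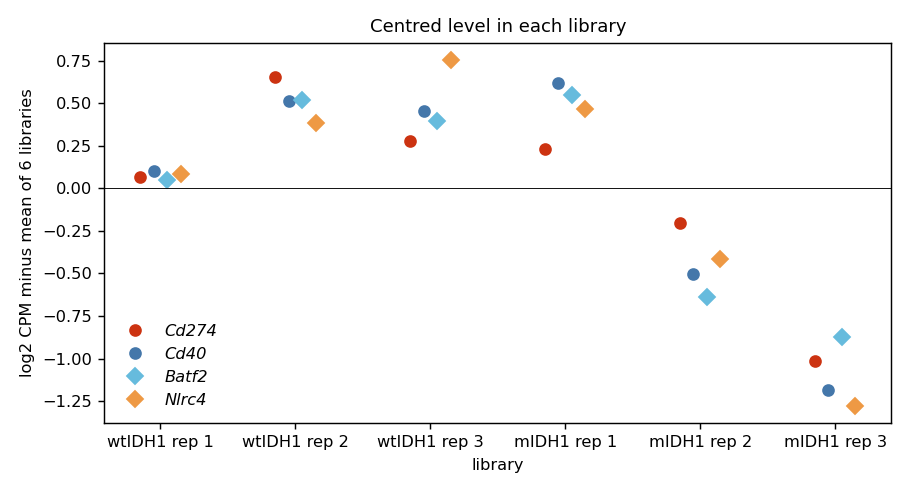
Log2 CPM minus the mean over the 6 libraries (y axis) for Cd274, for Cd40 and for the genes nearest to Cd40 in pattern, Batf2 and Nlrc4, in each library (x axis). The 3 wtIDH1 libraries and mIDH1 replicate 1 lie above 0 and mIDH1 replicates 2 and 3 below 0 for all 4 genes.

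Genes known to act on PD-L1 were measured as a list of 9: interferon gamma receptor chains, JAK kinases, Stat3, IRF factors and the CMTM proteins that keep PD-L1 at the surface. None of the 9 passed in edgeR, while 5 had an unadjusted p under 0.05, where 22.2% of all tested genes did. DESeq2 called 1 higher, the receptor gene Ifngr1, and 1 lower, the kinase gene Jak2. The median log2 fold change was -0.24, against 0.06 for all tested genes. The most abundant were Stat3, with a log2 fold change of -0.39 ± 0.17 SE (edgeR adjusted p = 0.188), and the kinase gene Jak1, with one of 0.22 ± 0.16 SE (edgeR adjusted p = 0.459). Neither passed in any of 13 alternatives. Without mIDH1 replicate 1, edgeR called Ifngr1 higher and Jak2 lower.

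Some genes of a CD40 signalling list fell, genes that restrain NF-kB among them. Of 12 genes of the TRAF and NF-kB branch, 4 fell and none rose, where 5.39% of all tested genes fell. The log2 fold change was negative for 11 of the 12 and for 46.6% of all tested genes, with medians of -0.82 and 0.06. Traf3, which holds the alternative NF-kB pathway in check, fell to 63.8 ± 8.32 CPM in mIDH1 from 124 ± 14.3 CPM in wtIDH1 (SD, n = 3 each; log2 fold change -0.95 ± 0.18 SE, edgeR adjusted p = 0.0082). Nfkb2, the precursor of the p52 subunit of that pathway, fell from 383 ± 75.0 to 177 ± 57.2 CPM (log2 fold change -1.11, edgeR adjusted p = 0.016). Birc2, a ubiquitin ligase gene that acts with Traf3, and Tnfaip3, an inhibitor of NF-kB, had log2 fold changes of -0.85 and -0.64 (edgeR adjusted p = 0.016 and 0.044). These genes also serve other receptors of the tumour necrosis factor and Toll-like families. The number that fell was 2, 1 and 0 without wtIDH1 replicate 1, 2 or 3, 3 with the replicate number as a block, and 7 with DESeq2 or with no filter on low counts. Tnfaip3 passed in 6 of 13 alternatives, and not with the block (adjusted p = 0.081) or under scaling by library totals (adjusted p = 0.058). The monocyte markers Ly6c2 and Plac8 and the mature dendritic cell marker Cd83 fell as well. The monocyte marker F13a1 rose (log2 fold change 1.78), and 7 of 8 mature dendritic cell markers did not pass. The part of monocytes or dendritic cells in the CD40 signalling genes was not tested.

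**Figure D4:**
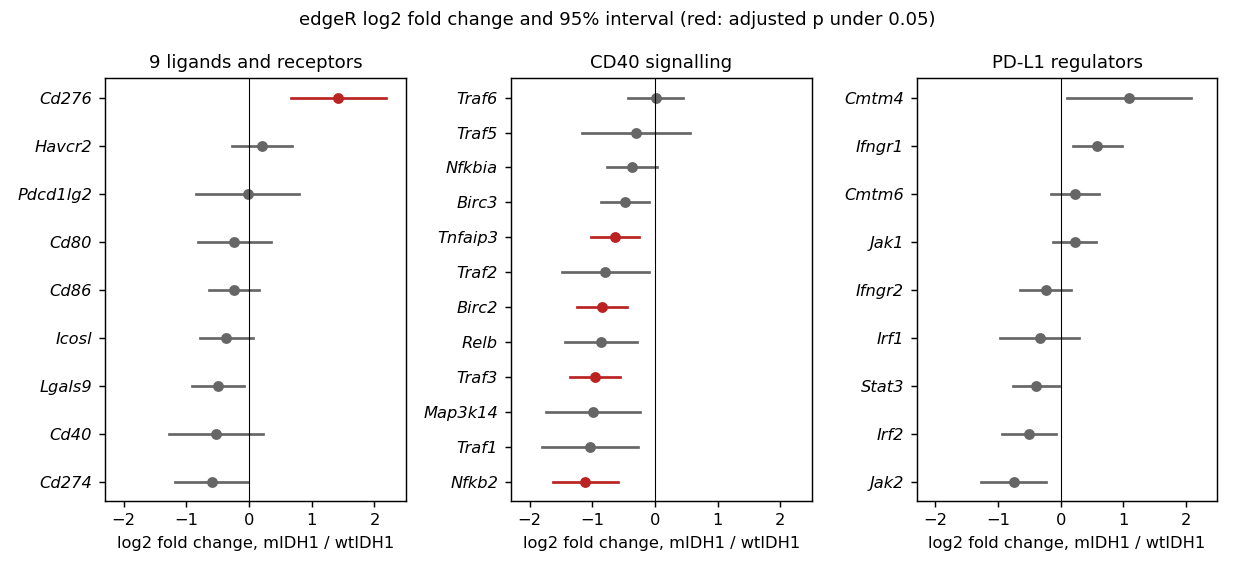
Log2 fold change of mIDH1 over wtIDH1 with its 95% interval (x axis) for the 9 ligands and receptors, 12 CD40 signalling genes and 9 PD-L1 regulators (y axis), from edgeR with all 6 libraries, in red where the adjusted p was under 0.05. Cd276 is the one red gene of the 9, Traf3, Nfkb2, Birc2 and Tnfaip3 are red in the second panel, and no gene is red in the third.

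Other ligands and receptors of related kinds mostly did not pass. Of 12 further ligands and receptors, mostly of the immunoglobulin type, 9 were tested. Of these 1 fell, Pvr, the gene of the ligand of TIGIT and CD226. It was at 49.9, 55.0 and 53.5 CPM in wtIDH1 and at 23.3, 33.2 and 27.0 CPM in mIDH1 libraries, with no overlap (log2 fold change -0.92 ± 0.23 SE, edgeR adjusted p = 0.027). Pvr passed in 8 of 13 alternatives, not with the replicate number as a block and not without wtIDH1 replicate 1, 2 or 3 or mIDH1 replicate 1, where the adjusted p reached 0.114. None of 5 tested costimulatory ligands of the tumour necrosis factor family passed by edgeR (1 at an unadjusted p under 0.05, and 1 called lower by DESeq2); the mean level of Tnfsf9, the 4-1BB ligand, was 12.5 CPM over the wtIDH1 and 16.9 CPM over the mIDH1 libraries, and that of Tnfsf14 16.2 and 14.9 CPM. None of the 5 genes of a galectin list did (1 at an unadjusted p under 0.05, 1 lower by DESeq2). In that list Lgals3 was at 404 and 401 CPM. Lgals3bp, which binds galectins and is not a galectin itself, was at 717 and 815 CPM. The TIM family genes Timd4 and Timd2 were at or under 4.11 CPM in every library and did not pass (none at an unadjusted p under 0.05 of 2 tested, none by DESeq2).

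Partner receptors on T cells were all detected in these sorted myeloid libraries. All 12, among them Pdcd1, Cd28, Ctla4 and Icos, were tested, none passed by edgeR or DESeq2, and 3 had an unadjusted p under 0.05, a share near the 22.2% of all tested genes. The log2 fold change was negative for 2 of the 12, against 46.6% of all tested genes. By edgeR, 1 was called higher without mIDH1 replicate 1 and 1 without mIDH1 replicate 3. The most abundant were Lag3, with means of 88.7 CPM (wtIDH1) and 103 CPM (mIDH1), and Tnfrsf9, at 58.6 and 71.2 CPM. Their summed level was 311 to 530 CPM in wtIDH1 and 359 to 578 CPM in mIDH1, so the groups overlapped.

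Dendritic cells express many of the 9 genes when they mature, and their markers were set beside them. None of 10 dendritic cell markers passed (none at an unadjusted p under 0.05, none by DESeq2). The log2 fold change was negative for 9 of the 10, against 46.6% of all tested genes, with a median of -0.55. Xcr1 (-1.35, edgeR adjusted p = 0.27) and Batf3 (-1.45, edgeR adjusted p = 0.28) were the lowest. Batf3 was low, at 4.95 to 5.24 CPM in wtIDH1 and 1.21 to 2.52 CPM in mIDH1. Its groups did not overlap, as was so for 28.9% of all tested genes. The sum of 1446 to 1683 CPM in wtIDH1 and 1461 to 2022 CPM in mIDH1 was mostly Sirpa (996 to 1231 CPM) and Itgax (299 to 695 CPM), which other myeloid cells express too. Of 8 markers of mature dendritic cells 1 fell, Cd83, from 267 ± 48.0 to 91.1 ± 9.76 CPM (log2 fold change -1.55, edgeR adjusted p = 0.00046, passed in all 13 alternatives), and 3 fell by DESeq2. The log2 fold change was negative for all of these 8, from -0.07 for Fscn1 (edgeR adjusted p = 0.936) to -1.81 for Ccl22 (edgeR adjusted p = 0.063). That of Ccr7 was -0.48 (edgeR adjusted p = 0.532). The 8 genes summed to 319 to 437 CPM in wtIDH1 and 130 to 182 CPM in mIDH1, of which Cd83 made 222 to 318 and 80.2 to 99.0 CPM. B cell markers were low, at a sum of 3.38 to 4.59 CPM in wtIDH1 and 6.28 to 14.3 CPM in mIDH1. The part of dendritic or B cells in the levels of Cd40, Cd80, Cd86 or Icosl was not tested.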

How the data were processed

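The deposited table gives the authors' estimated counts for each gene, with 1 column for each of 6 libraries and no scaling. Reads were handled with TopHat2 2.0.13 and Bowtie2 2.2.1 on the mm10 build, and Cufflinks, HTSeq, Cuffdiff 2.1.1 and FastQC are named as well, per the submitters' processing notes. Their order, settings and annotation release were not given in the sources used here. Per the labels' protocols, polyadenylated RNA was sequenced with a kit that does not mark strand. Between 1.31 and 1.61% of values per library were not whole to within 1e-09, and counts were rounded. Between libraries of a group, chi-square over its degrees of freedom was 50.3 to 144, above sampling noise, and each library was counted as 1 sample. Such a value does not show that the libraries came from separate mice.

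Genes were kept with filterByExpr (minimum count 10, minimum total 15), libraries scaled by TMM, and groups compared with edgeR 4.0.16 (glmQLFit, glmQLFTest, group as the only term, two-sided) in R 4.3.3, with DESeq2 1.42.0 and limma 3.58.1 voom as alternatives. The script was tested on simulated counts. Count ratios were taken with 0.5 counts added to each gene and compared by exact permutation. Coordinates and exons are from GENCODE M21 (GRCm38, the assembly of mm10), counted from 1. The 9 genes and all lists were chosen with earlier results of these data known. From each list, up to 6 genes past the threshold are named by smallest p, or the 2 most abundant tested genes where none passed, and for each of the 9 genes but Cd274 the genes of nearest pattern. A few results, with 2 genes of the lists, are not reported here. Genes of marker lists are named only where a result turns on them. Other genes named were chosen after their values were seen. Alternatives covered scaling, filters, tools, a replicate block and leaving out each library.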

Additional observations from a re-analysis of the deposited data

How the results depend on the processing

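Of all tested genes 1058 passed, 1705 with DESeq2 and 585 with the replicate number as a block. With 1 library left out the count ranged from 334 (without wtIDH1 replicate 2) to 1033 (without mIDH1 replicate 3). Of the 9 genes, between 0 and 1 rose and between 0 and 2 fell with 1 library left out, and the block left Cd276 as the one that passed (log2 fold change 1.37, adjusted p = 0.028). No shared effect of the replicate number was seen. Same-numbered libraries had correlations of -0.051 to 0.031 between their deviations from the group means, other pairs -0.039 to 0.072. Such values cannot show whether the libraries were prepared in pairs. Over 13 alternatives each, Cd274, Cd80, Cd86, Icosl, Cd276, Cd40, Lgals9 and Havcr2 kept the sign of their log2 fold change. Scaling by library totals alone reversed the signs of Pdcd1lg2 (0.043) and Lgals3 (0.058). With 1 library left out, Pdcd1lg2 ranged from -0.43 to 0.25, Lag3 from -0.059 to 0.48, Lgals3 from -0.11 to 0.13 and the log2 ratio of Cd86 to Cd80 from -0.13 to 0.39. The cause of each reversal was not tested.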
